A study of Mus musculus with 9 samples.

Results

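Receptors for acetylcholine, serotonin, dopamine, noradrenaline and histamine were compared across the layers of the mouse piriform cortex, the main cortical target of the olfactory bulb. The members were all genes of the muscarinic (Chrm), nicotinic (Chrna and Chrnb), serotonin (Htr), dopamine (Drd), adrenergic (Adra and Adrb) and histamine (Hrh) receptor families, each represented by its transcript with the highest mean count over the 9 samples. They comprised 50 genes of 33964 with an annotated transcript, namely 5 muscarinic, 13 nicotinic, 14 serotonin, 5 dopamine, 9 adrenergic and 4 histamine receptor genes. The name pattern also matched Chrna1os, an antisense RNA that encodes no receptor and was left out.

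The 9 samples were layers A, B and C, 3 replicates each, cut by laser capture from fresh-frozen brain sections of untreated wild-type C57BL/6 mice. The labels give an age of 8 weeks, whereas the study's methods give an older age for the sequenced mice. The labels hold no key from the letters to the anatomical layer numerals, so the layers keep their letters. Nothing says that replicates came from separate animals, so p-values measure only the spread between these samples, which may be technical.

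Acetylcholine and the amines reach the piriform cortex mostly in long-range axons from the basal forebrain and the brainstem, and histamine comes from the hypothalamus. Nicotinic receptors and the Htr3 receptors are ion channels built from 5 subunits. The other members are G protein-coupled receptors, and they differ in their G protein. Chrm1, Chrm3, Chrm5, the Htr2 and Adra1 groups and Hrh1 act through Gq and phospholipase C, Chrm2, Chrm4, the Htr1, Htr5 and Adra2 groups, Drd2 to Drd4, Hrh3 and Hrh4 through Gi, and Drd1, Drd5, Htr4, Htr6, Htr7, the Adrb group and Hrh2 through Gs and cyclic AMP.

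Total counts ranged from 23104306 to 76471683 per sample, but mitochondrial ribosomal RNA took 55.3 to 70.2% of layer A, 12.8 to 28.2% of layer B and 20.5 to 57.1% of layer C. After scaling by the trimmed mean of M values, a per-sample factor that balances most transcripts, 3 counts corresponded to 0.0256 to 0.254 counts per 1000000 (CPM). Depth was lowest in layer A replicate 1 and greatest in layer C replicate 3. All levels below are normalized CPM unless stated otherwise. Layer B replicate 3 stood apart from its group in several lists of cell type markers. In that sample the summed level of 8 interneuron markers was 300 CPM, against 60.9 and 56.1 in the other layer B samples. Summed oligodendrocyte markers were 216 CPM against 43.3 and 46.5, and astrocyte markers 187 CPM against 70.3 and 72.9. Summed glutamatergic neuron markers did not stand apart, at 1182 CPM against 1232 and 1289, but that sum is mostly Camk2a. Single markers did, with Slc17a7 lower at 165 CPM against 314 and 268. Nrgn was higher at 88.9 CPM against 50 and 39, and Neurod6 at 4.33 CPM against 2.16 and 1.71. The rest lay within or close to the range of the other layer B samples.

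Markers of other cell types also differed between the layers, by the adjusted test described below. Of all transcripts tested, 10.7% were higher and 5.83% lower in layer A than layer B, and 6.98% and 4.35% than layer C. In layer A against layer B, all 8 astrocyte, 8 pericyte and 8 meningeal markers, 7 of 8 endothelial, 6 of 8 microglial, all 6 oligodendrocyte precursor markers and 1 of 8 oligodendrocyte markers were higher. In layer A against layer C, all 8 astrocyte, pericyte and meningeal markers, 6 of 8 endothelial and microglial markers, 2 of 6 precursor markers and 0 of 8 oligodendrocyte markers were higher. Summed astrocyte markers were 867 to 1429 CPM in layer A, 70.3 to 187 CPM in layer B and 131 to 173 CPM in layer C, and summed meningeal markers were 79.8 to 192 CPM, 1.29 to 7.38 CPM and 4.10 to 5.68 CPM. Summed pericyte markers were 236 to 389 CPM in layer A, 16.9 to 59.8 CPM in layer B and 47.3 to 67.3 CPM in layer C, endothelial markers 112 to 140 CPM, 7.88 to 20.9 CPM and 16.2 to 26.0 CPM, and microglial markers 130 to 168 CPM, 20.8 to 55.8 CPM and 44.8 to 66.1 CPM. Precursor markers summed to 95.5 to 138 CPM, 18.8 to 34.2 CPM and 43.2 to 60.6 CPM, and oligodendrocyte markers to 164 to 267 CPM, 43.3 to 216 CPM and 130 to 483 CPM. Of 8 glutamatergic neuron markers, Tbr1 and Nrgn were lower and Camk2a higher in layer A than layer B, and 3 of the 8, Neurod6 and Nrgn among them, were lower and Camk2a higher than in layer C. The summed level of these 8 was 2361 to 4296 CPM in layer A, 1182 to 1289 CPM in layer B and 1172 to 1710 CPM in layer C, mostly Camk2a, and the 8 interneuron markers summed to 195 to 350 CPM, 56.1 to 300 CPM and 182 to 309 CPM. Of the interneuron markers, Gad2 was higher in layer A than layer B and Sst and Lhx6 were lower than in layer C. Pvalb was at 0 in layer A replicate 1, and so were single markers of the endothelial (Ly6c1), pericyte (Acta2) and meningeal (Slc6a13, Myoc) lists in some samples. The part of these cell types in the receptor differences was not tested, and in bulk tissue fewer cells of a type and less RNA per cell cannot be told apart.

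Of the 50 genes, 36 reached a minimum of 10 counts in 3 or more samples and could be tested. They were 4 muscarinic, 7 nicotinic, 13 serotonin, 1 dopamine, 8 adrenergic and 3 histamine receptor genes. All 9 samples held at least 10 counts of 14 members, and every sample of layers A, B and C held them for 15, 25 and 25 members. These raw counts depend on depth as well as level. In layer A, 3 counts stood for 0.0748 to 0.254 CPM. Elsewhere they stood for 0.0624 to 0.0693 CPM in layer B and 0.0256 to 0.191 CPM in layer C. The matching shares of all transcripts were not computed, so the smaller number in layer A does not show that fewer receptors were present there. No read was counted for Htr3b, an ion channel subunit, or for Hrh4, a receptor known mainly from blood cells. A member scarce in one layer could pass this limit through the others and so be favoured to differ. Chrna2, Chrna3, Htr1f, Htr5b and Adra1d reached 10 counts in no layer A sample and so passed through layers B and C. Of these, Chrna3 and Htr5b were called lower in layer A than both other layers. Htr1f and Adra1d were called lower than layer C, and only Chrna2 was not called. The counts of called members below include these, so their comparison with all transcripts is affected by the limit. The limit could also leave out members higher in layer A, where replicates 1 and 2 were shallow. Chrm5, Chrna5 and Drd2, not tested, were higher in every layer A sample than in every layer B sample. Chrna10, also not tested, was lower, and all of these had low counts. The counts below thus describe the tested members and not the families as a whole.

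The receptor transcripts that passed the test were lower in layer A than in another layer, except for the alpha-1 adrenergic receptor Adra1a. Layer A held the highest mean level of 5 of the 36 tested members, while 15 peaked in layer B and 16 in layer C. Against layer B, 9 of the 36 tested members were lower in layer A (Chrm1, Chrm3, Chrm4, Chrna3, Htr1a, Htr5b, Htr2c, Drd1 and Adra2a) and 1 was higher (Adra1a), where 5.83% and 10.7% of all 56416 transcripts tested were lower and higher. Against layer C, 14 were lower (Chrm1, Chrm3, Chrna3, Chrna4, Chrnb2, Htr1a, Htr1f, Htr5a, Htr5b, Htr2a, Htr2c, Adra1d, Adra2a and Hrh3) and 0 were higher, where 4.35% and 6.98% of all transcripts were. The calls came from quasi-likelihood F-tests in edgeR, with p-values adjusted over all transcripts by the Benjamini-Hochberg method and a threshold of 0.05. Chrm1, Chrm3, Chrna3, Htr1a, Htr5b, Htr2c and Adra2a, 7 members, were lower in layer A than both other layers, where 3.42% of all transcripts were. These comparisons share the layer A samples. The shares cover all transcripts of a gene, whereas each member is the transcript of its gene with the highest count. With one transcript per gene, 14 members were called against layer B and 15 against layer C, in either direction. The shares of all transcripts called were then 22.5% and 16.8%, against 16.5% and 11.3% in the main fit.

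The median log2 fold change of the 36 was -0.99 for layer A over layer B and -1.29 for layer A over layer C, while over all transcripts tested it was -0.12 and -0.01. With Chrna3, which had no count in layer A, placed at the bound that 3 counts allow, both medians stayed at -0.99 and -1.29. Every layer A sample lay below every layer B sample for 16 tested members and below every layer C sample for 19, against 15.1% and 14.5% of all transcripts. Between layers B and C no member passed the threshold, and neither did any of the 56416 transcripts (0% lower and 0% higher by edgeR's adjusted test). At an unadjusted p under 0.05, 5 members (Chrna4, Htr1a, Adra1a, Hrh1 and Hrh3) were lower in layer B than in layer C, where 4.11% of all transcripts differed in either direction. DESeq2 called 2 members between these layers, Chrna4 and Adra1a, and 0.22% of all transcripts it tested.

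Many of these calls were lost in fits that left out a single library, at times one outside the comparison. The count of 10 members between layers A and B was 5 without layer A replicate 1 or without layer B replicate 1, and 6 without layer B replicate 2 or layer C replicate 1. The share of all transcripts called in that comparison fell with it, from 16.5% to 9.92%, 10.4%, 13.0% and 13.9%. The count of 14 members between layers A and C was 4 without layer A replicate 1 or layer C replicate 1, 6 without layer A replicate 2 and 9 without layer C replicate 3. There the share of all transcripts was 11.3% with all samples and 4.85%, 2.45%, 5.78% and 9.07% without these. Without layer B replicate 3, 12, 16 and 1 members were called in the 3 comparisons, beside 20.4%, 17.5% and 0.0305% of all transcripts. Chrm1, Chrm3, Htr1a, Htr2c and Adra1a between layers A and B, and Chrm3, Chrna4 and Htr1a between layers A and C, stayed called in all the alternatives in which they were tested.

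**Figure D1:**
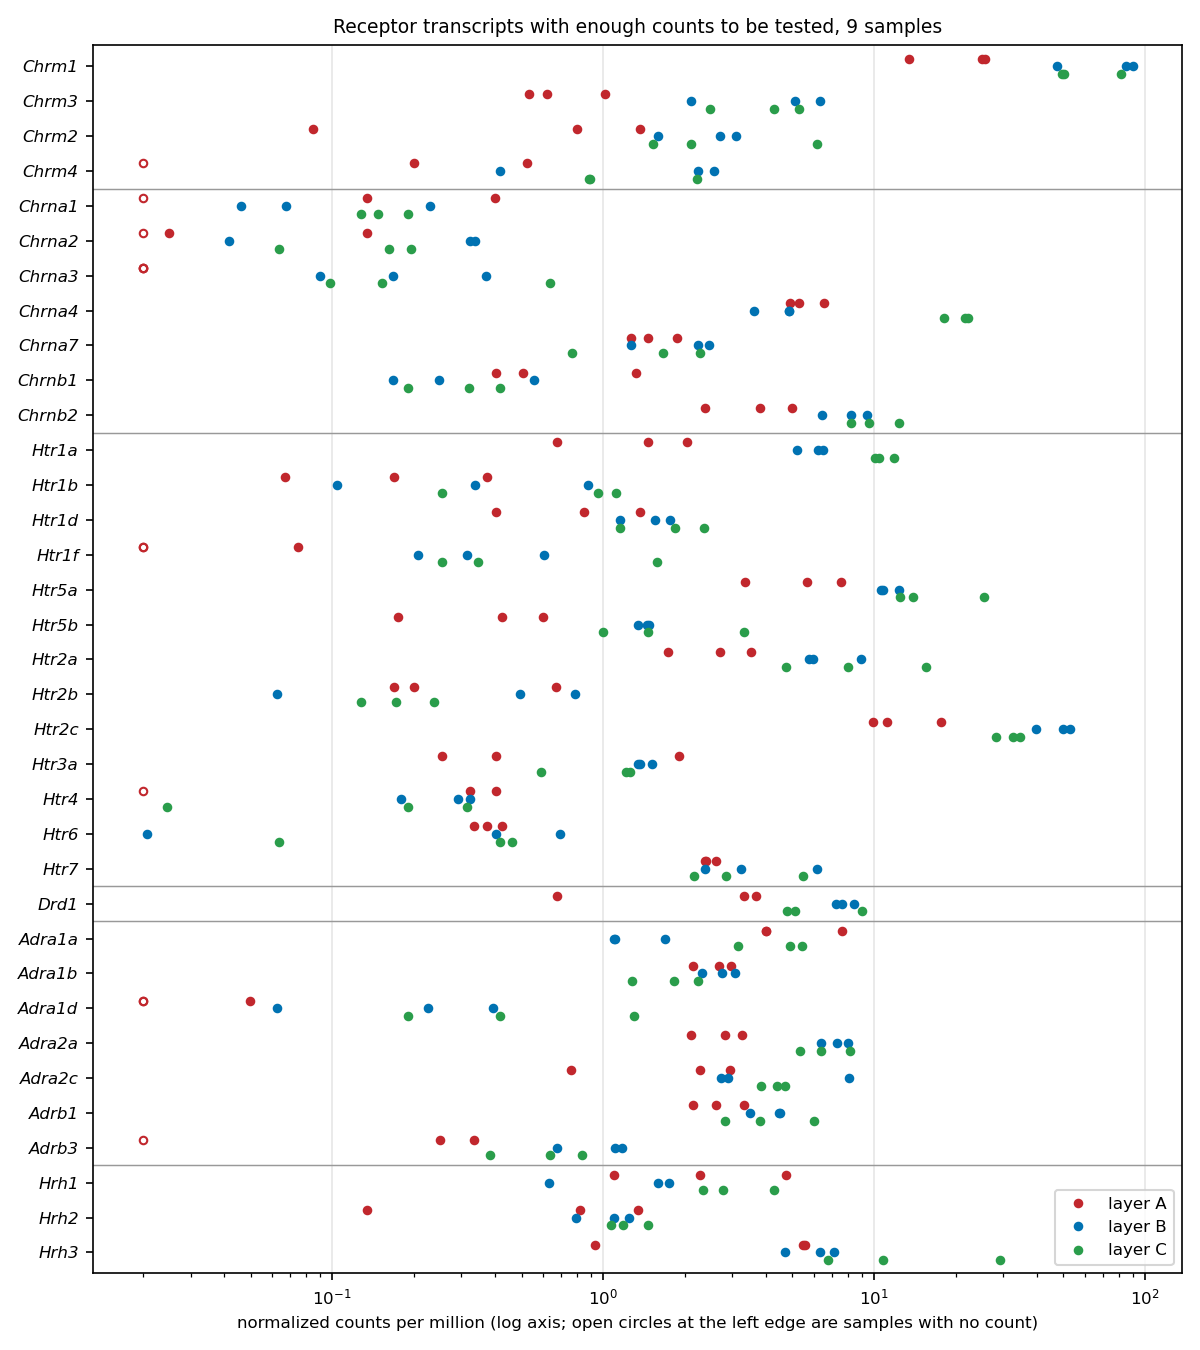
Normalized CPM (counts per 1000000) of 35 of the 36 tested receptor transcripts in each of the 9 samples, on a log axis, with layers A, B and C in red, blue and green and samples without a count as open circles at the left edge. Layer A samples sit to the left of all layer B samples for 16 receptors and of all layer C samples for 19, Chrm1 reaches the highest levels, at 90.0 CPM in layer B, and Adra1a is lowest in layer B.

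Counts per kilobase of transcript allow levels of different genes to be set side by side. The order by the mean over all 9 samples was led by Chrm1 at 8.30 counts per kilobase and per 1000000 (RPKM), Htr2c at 6.30 RPKM, Hrh3 at 3.16 RPKM, Chrna4 at 2.24 RPKM and Htr5a at 2.11 RPKM. This order holds for the pooled mean and differed by layer, since in layer B Chrna4, at 0.975 RPKM, lay below Chrm3 at 2.55 RPKM and Drd1 at 2.20 RPKM. The annotated transcripts of Chrm3, Chrm4 and Chrm5 hold 0 noncoding bases, so reads from untranslated parts of those genes have no place to be counted and their levels per kilobase are not directly comparable with the rest. Libraries were not strand-specific, and the counted transcripts of 10 members share exon positions with another gene. The share was largest for Htr1b (66.9% with D430036J16Rik), Drd5 (48.6% with Gm26560), Chrna10 (40.8% with Art1) and Adrb3 (19.5% with Gm45470), and reads there cannot be assigned to one gene.

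The muscarinic receptors were led by Chrm1, the main Gq-coupled acetylcholine receptor of forebrain principal neurons, encoded on chromosome 19 (chr19:8664005-8683587, plus strand, mm10). Its level was 13.5, 25.1 and 25.7 CPM in layer A, 90.0, 85.4 and 47.3 CPM in layer B and 81.8, 49.4 and 50.2 CPM in layer C. Every layer A sample lay below all 6 others, and layers B and C overlapped. The log2 fold change of Chrm1 was -1.79 ± 0.36 (SE) for layer A over layer B (edgeR adjusted p = 0.00349) and -1.49 ± 0.36 for layer A over layer C (adjusted p = 0.0152). The second was lost without layer A replicate 1 (adjusted p = 0.0718) or layer C replicate 1 (adjusted p = 0.104). A small RNA gene, Gm22820, overlaps 5.2% of the transcript, and another Chrm1 transcript had a count within 10% of it.

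Chrm3, also coupled to Gq, had the steepest muscarinic difference (chr13:9877229-9878998, minus strand). It measured 1.02, 0.534 and 0.623 CPM in layer A, 6.31, 5.10 and 2.12 CPM in layer B and 4.27, 2.49 and 5.27 CPM in layer C. Again no layer A sample reached any sample of the other layers. The log2 fold change of Chrm3 was -2.67 ± 0.52 against layer B (adjusted p = 0.00286) and -2.51 ± 0.52 against layer C (adjusted p = 0.00773). The Gi-coupled Chrm4 was at 0, 0.200 and 0.524 CPM in layer A, 2.25, 2.56 and 0.416 CPM in layer B and 2.23, 0.893 and 0.886 CPM in layer C. Layer B replicate 3 fell among the layer A samples, so the groups overlapped.

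Chrm4 was lower in layer A than layer B by 2.58 on the log2 scale (log2 fold change -2.58 ± 0.82, adjusted p = 0.0431), a call that was lost without any one of layer A replicates 1 and 2, layer B replicates 1 and 2 or any layer C sample, with adjusted p-values of 0.053 to 0.134. Its difference from layer C was -2.21 ± 0.82 (adjusted p = 0.102). Chrm2, the other Gi-coupled muscarinic receptor, measured 0.0847, 0.802 and 1.37 CPM in layer A, 2.70, 1.59 and 3.10 CPM in layer B and 2.11, 1.53 and 6.18 CPM in layer C. Its log2 fold changes were -1.59 ± 0.67 (adjusted p = 0.125) and -2.03 ± 0.68 (adjusted p = 0.0665), so neither passed the threshold, although all samples of layer A lay under all others. Chrm5 had 1 to 27 counts per sample and was not tested. It measured 0.169, 0.401 and 0.0748 CPM in layer A, 0.0449, 0.0231 and 0.0208 CPM in layer B and 0.147, 0.0638 and 0.23 CPM in layer C.

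Chrm1 took most of the muscarinic signal in every layer. It made up 79.6% ± 3.68 (SD, n = 3) of the muscarinic counts per kilobase in layer A, and layer B had 74.6% ± 3.57 and layer C 71.4% ± 7.90. Chrm3 followed with 11.1% ± 7.88, 15.3% ± 2.67 and 16.9% ± 5.45. These shares do not depend on the scaling between samples, and their differences between layers were not tested.

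The nicotinic subunits held the member that separated layers B and C most clearly. Chrna4, an alpha subunit that combines with Chrnb2 in the main high-affinity nicotinic receptor of the brain, lies at chr2:181022311-181039305 on the minus strand. Its level was 6.52, 5.28 and 4.89 CPM in layer A, 4.85, 4.87 and 3.62 CPM in layer B and 21.6, 18.2 and 22.3 CPM in layer C. All 3 layer C samples were far above the other 6, whereas layers A and B differed little, by 0.32 ± 0.31 (adjusted p = 0.549).

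The log2 fold change of Chrna4 was -1.90 ± 0.32 for layer A over layer C (adjusted p = 0.00292) and -2.22 ± 0.32 for layer B over layer C. The latter ranked 3 by p among the 56416 transcripts of that comparison and missed the threshold (adjusted p = 0.0698, the smallest that any transcript reached, shared by 6). It passed with DESeq2 (adjusted p = 5.99e-09), without a filter on low counts (0.0138), with one transcript per gene (0.0175) and without layer B replicate 3 (0.0365), and without any other single sample the adjusted p was 0.112 to 0.55. The fold change itself stayed between -2.32 and -2.03 in every alternative.

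Chrnb2, its partner, did not follow the same order. It measured 2.37, 3.81 and 4.96 CPM in layer A, 9.43, 8.22 and 6.41 CPM in layer B and 12.4, 9.57 and 8.25 CPM in layer C (chr3:89752433-89764632, minus strand). Layers B and C overlapped, with a difference of -0.33 ± 0.35 (adjusted p = 1.00), and layer A lay below both. Chrnb2 was lower in layer A than layer C by -1.42 ± 0.37 (adjusted p = 0.0218), which was lost without layer A replicate 1 (0.0893), layer A replicate 2 (0.0726) or layer C replicate 1 (0.122). Against layer B the difference was -1.09 ± 0.36 (adjusted p = 0.0522). Part of the transcript, 15.8%, overlaps Adar.

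The ratio of the subunits within a sample, per kilobase, needs no scaling between samples. Chrna4 to Chrnb2 was 3.85, 1.94 and 1.38 in layer A, whereas layer B had 0.721, 0.831 and 0.792 and layer C 2.44, 2.67 and 3.78. The ratio was thus below 1 in every layer B sample and above 1 in all others, and layers A and C overlapped. This pair was chosen after its values were seen. Chrna4 made up 39.3% ± 9.55 (SD) of the nicotinic counts per kilobase in layer A, while layer B had 26.9% ± 1.00 and layer C 62.3% ± 2.30.

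The sequences before the starts of these subunits and of Htr1a, the serotonin receptor described next, are shown because Chrna4 and Htr1a in layer C did not overlap with either other layer, whereas its samples of Chrnb2 overlapped with layer B. They are RefSeq promoter windows of GRCm38.p6, printed 5′ to 3′ up to the start of the counted transcript, with capitals marking GC boxes (GGGCGG on either strand).
Chrna4, chr2:181039306-181039427, minus strand: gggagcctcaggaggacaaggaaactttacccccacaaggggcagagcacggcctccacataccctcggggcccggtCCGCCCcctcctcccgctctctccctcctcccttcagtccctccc
Chrnb2, chr3:89764633-89764882, minus strand: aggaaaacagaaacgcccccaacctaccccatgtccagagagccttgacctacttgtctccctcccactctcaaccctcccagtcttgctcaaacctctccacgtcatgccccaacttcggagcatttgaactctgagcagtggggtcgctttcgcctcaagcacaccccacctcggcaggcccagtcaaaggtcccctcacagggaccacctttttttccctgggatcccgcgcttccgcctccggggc
Htr1a, chr13:105443443-105443638, plus strand: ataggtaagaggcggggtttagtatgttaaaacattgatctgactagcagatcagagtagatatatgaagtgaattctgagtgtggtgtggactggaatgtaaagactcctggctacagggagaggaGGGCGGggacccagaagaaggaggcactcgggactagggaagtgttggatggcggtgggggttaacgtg
The Chrna4 window held 1 GC box in 122 bases, the Chrnb2 window 0 in 250 bases and the Htr1a window 1 in 196 bases, and none held the TATA box letters TATAAA on either strand. Of 32851 RefSeq promoters, 13.1%, 32.7% and 23.9% held a GC box in windows of the same lengths and positions. TATAAA occurred in 6.12%, 12.4% and 9.0%. Positions were counted from the RefSeq start, which lies 128 bases inside the counted Chrna4 transcript and 54 bases inside that of Htr1a. The windows compared with these genes thus end 128 and 54 bases before each promoter's RefSeq start, not at a start. These matches describe letters only.

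The remaining nicotinic subunits were less abundant. Chrna7, which forms a channel of a single subunit type, measured 1.27, 1.47 and 1.87 CPM in layer A, 2.25, 2.45 and 1.27 CPM in layer B and 1.67, 0.765 and 2.28 CPM in layer C. The layers overlapped throughout, and its log2 fold changes of -0.35 ± 0.48, -0.05 ± 0.48 and 0.30 ± 0.47 did not pass the threshold (adjusted p of 0.685, 0.967 and 1.00). Chrnb1, known from muscle, measured 0.508, 0.401 and 1.32 CPM in layer A and 0.167 to 0.554 CPM elsewhere.

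Chrna3 had 0 counts in all 3 layer A samples, 28 over layer B and 32 over layer C. Its level was 0.0898, 0.369 and 0.167 CPM in layer B and 0.0981, 0.638 and 0.153 CPM in layer C. Set against a floor of 3 counts over layer A, Chrna3 was at least 4.59-fold higher in layer B and at least 4.10-fold higher in layer C. The adjusted p-values were 0.0471 and 0.0479, and the call was lost in both comparisons without any one layer A sample (0.0996 to 0.154). It was also lost without layer B replicate 1 (0.0534) or layer C replicate 1 (0.0558) in the first, and without layer C replicate 1 (0.0785) in the second, and it could not be tested without any of 3 further samples. Chrna1 and Chrna2 stayed under 0.4 CPM in every sample and passed the threshold nowhere. Chrna6, Chrna9, Chrnb3 and Chrnb4 had at most 6 counts in any sample and Chrna10 at most 18. Chrna5 had 0 to 9 counts in 8 samples and 70 in layer C replicate 3, the deepest. After scaling it measured 0.508, 0.468 and 0.199 CPM in layer A, 0.135, 0 and 0.187 CPM in layer B and 0.0981, 0 and 0.596 CPM in layer C. It was not tested.

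**Figure D2:**
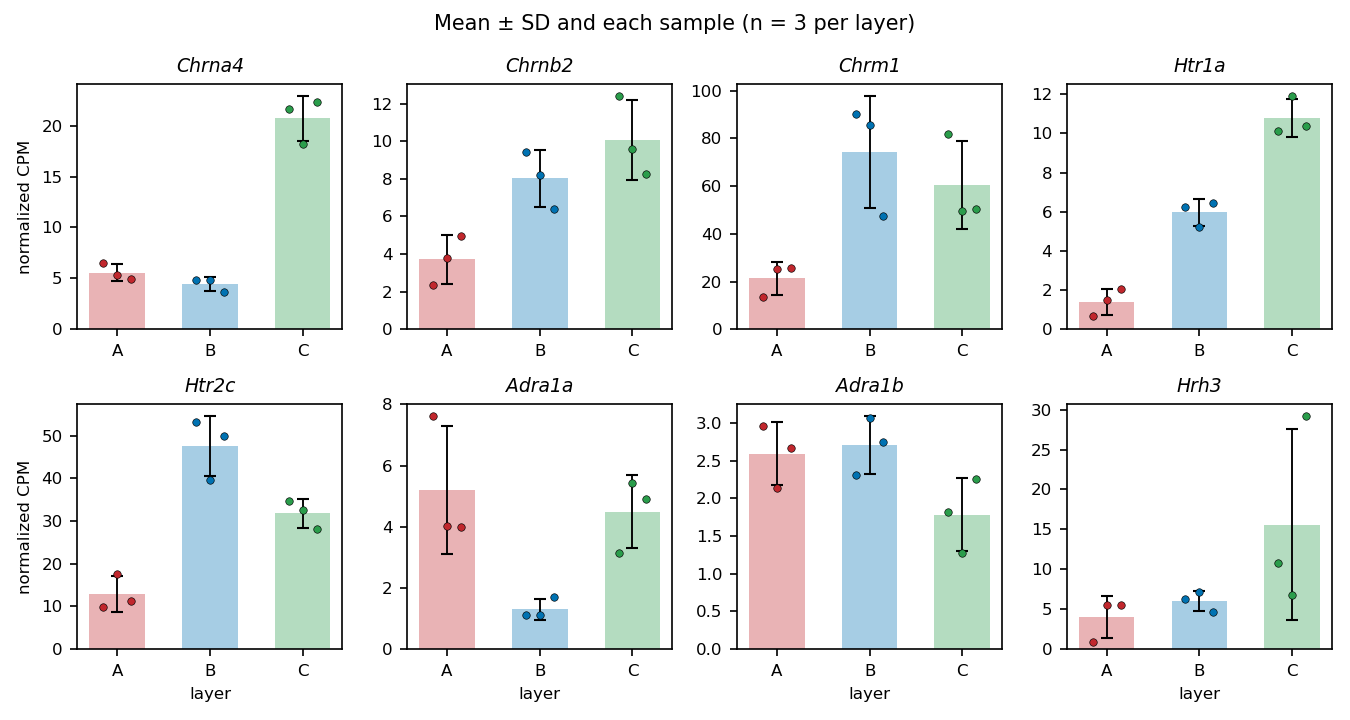
Normalized CPM (counts per 1000000) of 8 receptors in layers A, B and C, with bars for the mean, error bars for the SD and points for the 3 samples of each layer. Chrna4 stands at 18.2 to 22.3 CPM in layer C and at most 6.52 CPM elsewhere, Htr1a does not overlap between the layers and is highest in layer C, and Adra1a is lowest in layer B.

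Serotonin receptors made up the largest tested family, in which Htr1a was highest in layer C and Htr2c in layer B. Neither difference between those layers passed the threshold. Htr1a, the Gi-coupled receptor that opens potassium channels in principal neurons, measured 0.677, 1.47 and 2.04 CPM in layer A, 6.22, 5.20 and 6.47 CPM in layer B and 10.1, 11.9 and 10.4 CPM in layer C (chr13:105443639-105448122, plus strand). No samples overlapped between any of the 3 layers. The log2 fold change of Htr1a was -2.04 ± 0.40 for layer A over layer B (adjusted p = 0.00297) and -2.89 ± 0.41 for layer A over layer C (adjusted p = 0.00176). Between layers B and C it was -0.85 ± 0.37, with an unadjusted p of 0.0358 and an adjusted p of 1.00.

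Htr2c, a Gq-coupled receptor with edited transcripts, was the most abundant serotonin receptor in all layers (chrX:146962514-147197277, plus strand). Its level was 9.91, 17.6 and 11.2 CPM in layer A, 53.1, 39.7 and 50 CPM in layer B and 34.7, 32.7 and 28.1 CPM in layer C. Here too the layers did not overlap, but the highest was layer B. The log2 fold change of Htr2c was -1.89 ± 0.31 for layer A over layer B (adjusted p = 0.000951) and -1.31 ± 0.30 for layer A over layer C (adjusted p = 0.0134), the second lost without layer A replicate 1 (0.0609) or layer C replicate 1 (0.0802). Layer B over layer C was 0.58 ± 0.30 (adjusted p = 1.00). Another Htr2c transcript had a count within 10% of the one used.

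Htr1a took 4.51% ± 1.75 (SD), 7.18% ± 0.200 and 13.2% ± 0.518 of the serotonin receptor counts per kilobase in layers A, B and C, and Htr2c took 39.7% ± 12.8, 52.5% ± 2.89 and 35.9% ± 4.01. The Htr1a share was thus above every layer A and B sample in all layer C samples. These shares describe make-up and were not tested.

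Htr2a, the other cortical Gq-coupled serotonin receptor, measured 2.71, 1.74 and 3.52 CPM in layer A, 8.94, 5.75 and 5.95 CPM in layer B and 8.05, 4.72 and 15.5 CPM in layer C. All layer A samples were below the rest. Htr2a was lower in layer A than layer C by -1.82 ± 0.45 (adjusted p = 0.0185), and this was lost without layer A replicates 1 (0.0685) or 2 (0.0861) or layer C replicates 1 (0.0598) or 3 (0.102). Against layer B the difference of -1.36 ± 0.45 narrowly missed the threshold (adjusted p = 0.0509), and it passed it in 9 of the alternatives.

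Htr5a and Htr5b, receptors linked to Gi, were also lower in layer A. Htr5a measured 7.54, 3.34 and 5.66 CPM in layer A, 10.6, 10.8 and 12.4 CPM in layer B and 13.9, 25.5 and 12.5 CPM in layer C. Its difference from layer C was -1.65 ± 0.38 (adjusted p = 0.0135), lost without layer A replicate 2 (0.0649) or layer C replicate 2 (0.063), and its difference from layer B was -1.04 ± 0.38 (adjusted p = 0.0748). Every layer A value was below every other value. Htr5b stayed at 0.423, 0.601 and 0.175 CPM in layer A against 1.48, 1.45 and 1.35 CPM in layer B and 3.31, 1.47 and 0.997 CPM in layer C. Htr5b differed by -1.94 ± 0.62 from layer B (adjusted p = 0.0425) and by -2.36 ± 0.62 from layer C (adjusted p = 0.0232). The first was lost without layer A replicates 1 or 3, layer B replicates 1 or 2 or layer C replicate 1 (0.052 to 0.163), and the second without layer A replicates 1 (0.0711) or 3 (0.0951) or layer C replicate 1 (0.178).

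Htr1f, a Gi-coupled receptor, had 3 counts over the 3 layer A samples, 52 over layer B and 203 over layer C, 185 of these in layer C replicate 3. Pooled over samples, the ratio of layer C to layer A was 26.0, with a 95% exact counting interval of 8.78 to 127.0, and the ratio of layer B to layer A was 8.53 (2.76 to 42.7). Without layer C replicate 3, a choice made after seeing the data, the ratio of layer C to layer A was 7.11 (2.08 to 37.7). Such intervals cover counting error only, and amplified reads are not independent molecules. Layer A was lower than layer C by the fitted test (adjusted p = 0.0227), which was lost without layer A replicates 1 (0.0811) or 2 (0.0818) or layer C replicates 1 (0.0506) or 3 (0.138). The difference from layer B had an adjusted p of 0.0644.

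The other serotonin receptors did not pass the threshold in any pair of layers. Among them Htr7, a Gs-coupled receptor, was the most abundant at 2.37, 2.40 and 2.62 CPM in layer A, 3.23, 2.38 and 6.16 CPM in layer B and 2.16, 5.49 and 2.85 CPM in layer C. Its counted transcript is annotated as subject to nonsense-mediated decay, and another one had a count within 10% of it. Htr1d measured 0.401 to 1.37 CPM in layer A, 1.15 to 1.77 CPM in layer B and 1.15 to 2.36 CPM in layer C. Htr3a, the ion channel subunit carried by a class of interneurons, measured 0.254 to 1.90 CPM in layer A, 1.34 to 1.52 CPM in layer B and 0.589 to 1.26 CPM in layer C. The layers overlapped or nearly touched for these receptors. Htr1b, Htr2b, Htr4 and Htr6 stayed below 1.2 CPM in every sample, with log2 fold changes between -1.82 and 1.22.

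Among the dopamine receptors, Drd1 alone reached 10 counts in 3 samples and was tested. Drd1, the Gs-coupled receptor known from striatal direct-pathway neurons, measured 0.677, 3.67 and 3.32 CPM in layer A, 8.45, 7.60 and 7.22 CPM in layer B and 5.13, 4.78 and 9.0 CPM in layer C (chr13:54051186-54055658, minus strand). Layer A lay below both, by -1.57 ± 0.49 against layer B (adjusted p = 0.0378) and -1.28 ± 0.49 against layer C (adjusted p = 0.107). The call against layer B was lost without layer A replicates 1 or 3, layer B replicates 1 or 2 or layer C replicate 1 (0.0591 to 0.099).

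Drd2, the Gi-coupled counterpart, was found mainly in 1 library. Its counts were 2, 5 and 28 in layer A, whereas layer B had 2, 0 and 3 and layer C 2, 0 and 320. After scaling, layer A measured 0.169, 0.334 and 0.698 CPM and layer B 0.0449, 0 and 0.0624 CPM. Layer C replicate 3 held most reads, at 2.73 CPM. Adora2a, which accompanies Drd2 in striatal projection neurons, was also highest there at 1.20 CPM, against 0.0245 and 0 CPM in the other layer C samples. Rgs9 was at 2.41 CPM in that library and at 0.423 to 0.993 CPM elsewhere. The 8 markers of striatal projection neurons that were listed after the counts of Drd2 were seen (among them Drd2, Adora2a, Penk and Pde10a) summed to 92.5, 69.6 and 96.5 CPM in layer C, 29.0 to 74.0 CPM in layer A and 118 to 216 CPM in layer B. The sum did not single out layer C replicate 3, and the source of its Drd2 reads was not tested. Drd5 had 56 counts in that library and 0, 7 and 1 in layer A, with none elsewhere. After scaling for depth it measured 0.477 CPM in that library and 0, 0.468 and 0.0249 CPM in layer A. Drd3 and Drd4 had at most 7 counts in any sample.

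The adrenergic family held the only member called higher in layer A than in another layer by the adjusted test. Adra1a, a Gq-coupled noradrenaline receptor, measured 7.62, 4.01 and 3.99 CPM in layer A, 1.10, 1.11 and 1.69 CPM in layer B and 3.14, 5.42 and 4.91 CPM in layer C (chr14:66635341-66729984, plus strand). Every layer B sample lay below all 6 others, and layers A and C overlapped. The log2 fold change of Adra1a was 1.99 ± 0.42 for layer A over layer B (adjusted p = 0.005), 0.21 ± 0.41 for layer A over layer C (adjusted p = 0.82) and -1.78 ± 0.42 for layer B over layer C. The last had an unadjusted p of 0.000663 and an adjusted p of 0.541, and DESeq2 gave an adjusted p of 0.0256. Another Adra1a transcript had a count within 10% of the one used.

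Adra1b, of the same class, did not share this pattern. It measured 2.96, 2.14 and 2.67 CPM in layer A, 2.31, 3.07 and 2.75 CPM in layer B and 1.82, 1.28 and 2.25 CPM in layer C. Its transcript is annotated as noncoding and tied in count with others of the gene. Per kilobase, the ratio of Adra1a to Adra1b was 1.83, 1.33 and 1.06 in layer A, whereas layer B had 0.339, 0.257 and 0.437 and layer C 1.23, 3.02 and 1.55. The ratio was below 1 in layer B alone, as for Chrna4 to Chrnb2, and this pair too was chosen after its values were seen.

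Adra1d, the third of the class, had 2 counts over layer A, 30 over layer B and 173 over layer C, 153 of them in layer C replicate 3. Its pooled ratio of layer C to layer A was 33.3 (95% exact counting interval 9.08 to 277.0), and that of layer B to layer A was 7.38 (1.87 to 63.8). Without layer C replicate 3 the ratio of layer C to layer A was 11.9 (2.88 to 105.0). Adra1d was lower in layer A than layer C (adjusted p = 0.024), a call lost without any one layer A sample or layer C replicates 1 or 3 (0.057 to 0.11), and against layer B the adjusted p was 0.126.

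Adra2a, the Gi-coupled receptor that also acts as a brake on noradrenaline release, measured 2.12, 2.81 and 3.27 CPM in layer A, 7.32, 6.35 and 7.99 CPM in layer B and 6.40, 8.16 and 5.35 CPM in layer C (chr19:54044151-54048982, plus strand). It separated layer A from both others and did not separate layers B and C. The log2 fold change of Adra2a was -1.39 ± 0.35 against layer B (adjusted p = 0.0132) and -1.26 ± 0.35 against layer C (adjusted p = 0.0307). The first was lost without layer A replicate 1 (0.0588) or layer B replicate 1 (0.0527), the second without layer A replicates 1 or 2, layer B replicate 1 or layer C replicates 1 or 2 (0.0501 to 0.111). Adra2c, its relative, measured 0.762, 2.94 and 2.27 CPM in layer A, 2.72, 2.89 and 8.10 CPM in layer B and 4.71, 4.40 and 3.82 CPM in layer C, and passed the threshold in no pair.

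The beta receptors Adrb1 and Adrb3, coupled to Gs, did not differ between layers by the adjusted test. Adrb1 measured 2.14 to 3.32 CPM in layer A, 3.50 to 4.48 CPM in layer B and 2.81 to 6.01 CPM in layer C. Adrb3 measured 0 to 0.334 CPM in layer A and 0.383 to 1.17 CPM elsewhere, with a log2 fold change of -2.21 ± 0.73 against layer B (adjusted p = 0.0513). Adra2b had 21 counts in all, 16 of them in layer A replicate 3.

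Histamine receptors were led by Hrh3, the Gi-coupled receptor known as an autoreceptor and as a heteroreceptor on other endings. It measured 0.931, 5.54 and 5.49 CPM in layer A, 6.31, 7.14 and 4.68 CPM in layer B and 10.8, 6.76 and 29.2 CPM in layer C (chr2:180099465-180104488, minus strand). Layer A replicate 1 was low and layer C replicate 3 was high within their groups, the latter being the library that held most Drd2 reads. Summed oligodendrocyte markers were also highest there, at 483 CPM against 130 CPM in both other layer C samples, and their part in the Hrh3 value was not tested. Hrh3 was lower in layer A than layer C by -1.95 ± 0.59 (adjusted p = 0.0432), but by -1.10 without layer C replicate 3 (adjusted p = 0.272). The call was also lost without any one layer A sample (0.0708 to 0.13) or layer C replicate 1 (0.086).

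Hrh1, coupled to Gq, measured 4.74, 2.27 and 1.10 CPM in layer A, 0.629, 1.75 and 1.60 CPM in layer B and 2.77, 4.27 and 2.33 CPM in layer C. Like Adra1a it was lowest in layer B, where all samples lay below those of layer C, but its log2 fold change of -1.22 ± 0.55 for layer B over layer C did not pass the threshold (unadjusted p = 0.0415, adjusted p = 1.00). Hrh2 stayed between 0.134 and 1.47 CPM and overlapped between all layers.

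**Figure D3:**
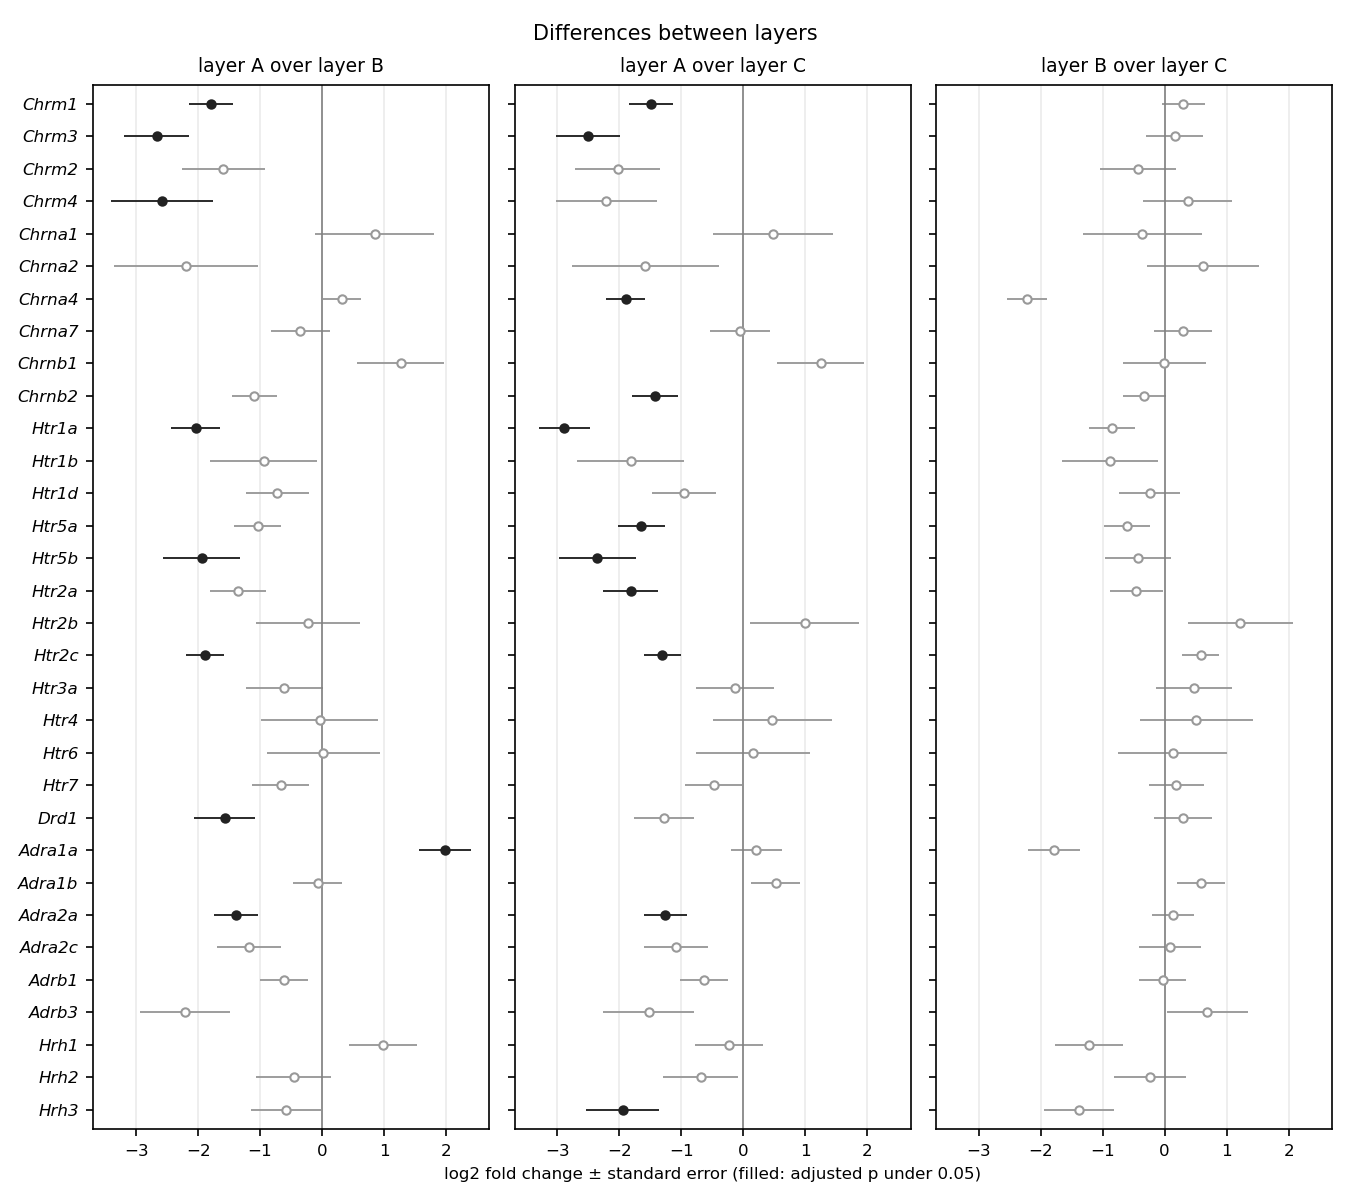
Log2 fold change with its standard error for 32 of the 36 tested receptors in each pair of layers, filled where the edgeR adjusted p was under 0.05. Chrna3, Htr1f and Adra1d are left out because layer A held 0 to 3 counts, and 1 further receptor is not shown. Most points lie left of 0 for layer A over layers B and C, Adra1a alone is filled on the right at 1.99, and for layer B over layer C no point is filled, with Chrna4 farthest left at -2.22.

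The members were also counted by signalling, beside the 5.83% and 4.35% of all transcripts that were lower in layer A than layer B and layer C. Between layers A and B, 3 of 9 tested Gq-coupled members were lower and 1 higher, and 4 of 11 Gi-coupled, 1 of 8 Gs-coupled and 1 of 8 ion channel members were lower. Between layers A and C the lower members were 5 of 9, 6 of 11, 0 of 8 and 3 of 8 in the same order. The Gs-coupled call was Drd1, and the ion channel call against layer B was Chrna3, which had no count in layer A. The median log2 fold changes for layer A over layer C were -1.31, -1.95, -0.56 and -0.78. Differences between the kinds were not tested.

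**Figure D4:**
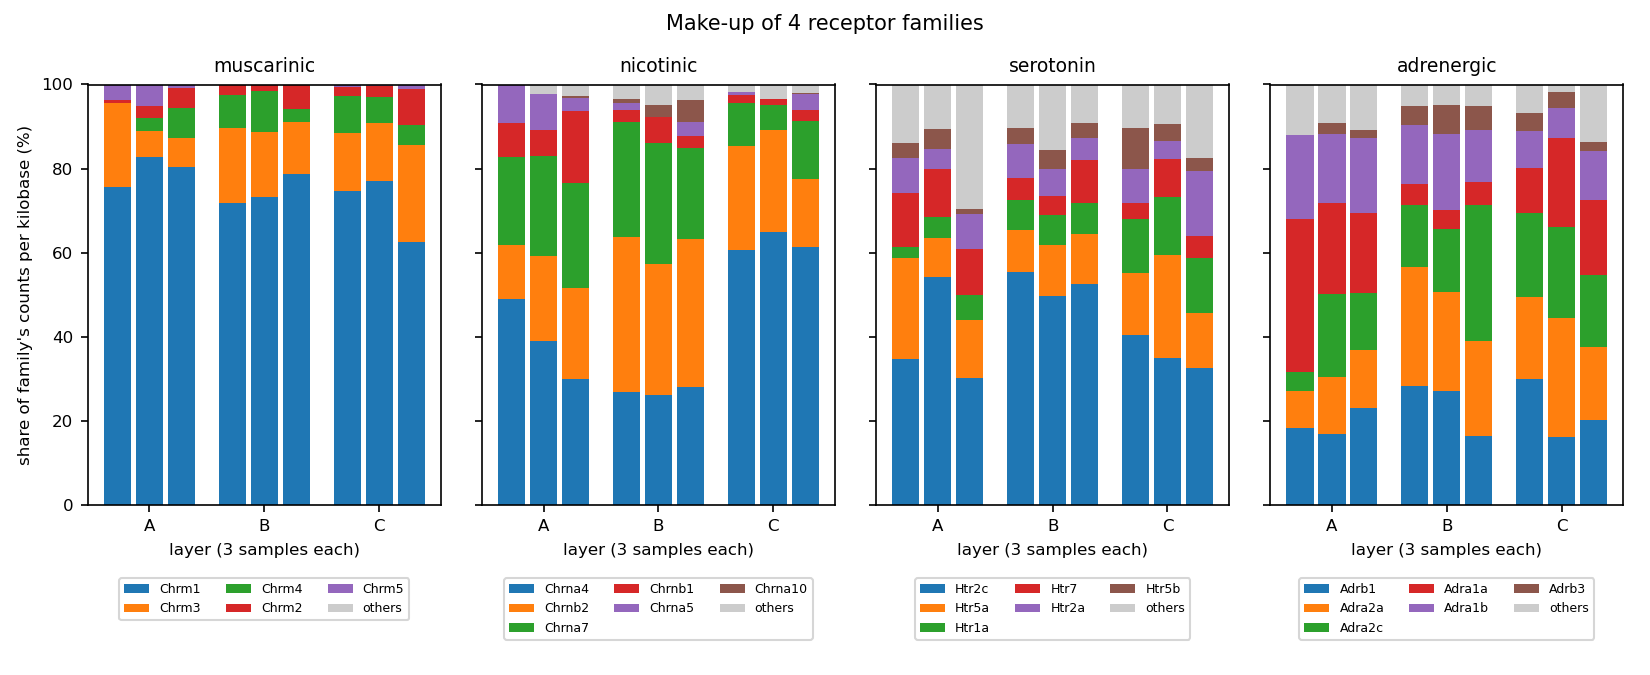
Share of each family's counts per kilobase taken by its members, in percent, for the 3 samples of layers A, B and C, with up to 6 abundant members in colour and all others in grey. Chrm1 takes most of the muscarinic signal in every sample, Chrna4 holds on average 26.9% of the nicotinic signal in layer B and 62.3% in layer C, and Adra1a holds 4.95% of the adrenergic signal in layer B.

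Several downstream effectors were also lower in layer A. For this list and those that follow, the comparison is with all transcripts tested. Of these, 5.83% were lower and 10.7% higher in layer A than layer B, and 4.35% and 6.98% than layer C. Of 24 listed effectors, all tested, 10 were lower and 1 higher in layer A than layer B, and the same numbers held against layer C, and the median log2 fold change was -0.85 in both. Among the lower ones was Kcnq5, a potassium channel closed by muscarinic signalling, at -1.61 against layer B (adjusted p = 0.00364). Plcb3, a phospholipase C gene, was higher in layer A, at 2.98 against layer B (adjusted p = 0.000529) and 1.99 against layer C (adjusted p = 0.00921). Of 24 G protein genes and regulators, 23 could be tested, and 5 were lower and 4 higher against layer B, 5 lower and 2 higher against layer C. Among the higher ones were Arrb1, an arrestin, at 1.65 and Gnai2 at 1.67 against layer B.

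None of the genes that end the transmitter signal was lower in layer A by the adjusted test. Of 11 inactivation and uptake genes, 9 were tested and 2 were higher in layer A than in each other layer, namely Bche, a cholinesterase, at 3.47 and 2.53, and Maob, which oxidises amines and is known from astrocytes, at 2.24 and 2.04 on the log2 scale. Of 11 synthesis and vesicle loading genes, 6 were tested, and Hdc, which makes histamine, and Ddc were higher in layer A than layer B, at 3.85 and 2.44, with none past the threshold against layer C. Among 8 nicotinic partners and muscle-type subunits, 5 were tested. Tmem35a, a chaperone of nicotinic receptors, was lower in layer A, at -1.66 against layer B and -1.06 against layer C, and Lypd6, a membrane-bound modulator, was higher than in layer B at 3.07. No gene of these 5 lists passed the threshold between layers B and C.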

How the data were processed

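RNA from laser-captured layers A, B and C of the piriform cortex was measured in 9 samples. The authors amplified it with the Ovation system, prepared strand non-specific libraries, aligned the read pairs with Bowtie to mm10, and the deposited values are raw read counts for each Ensembl transcript, not normalized. Per the labels, bcl2fastq 1.8.4 and HTSeq 0.5.3 were also used. How reads shared by transcripts were counted is not given in the sources used here, so levels of single transcripts are uncertain where genes have several.

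Identifiers were joined to the GENCODE M21 annotation (GRCm38, which is mm10), which held 82807 of 95533 (86.7%). The 56416 transcripts that reached 10 counts in 3 or more samples were scaled by TMM, and edgeR 4.0.16 under R 4.3.3 gave the tests (quasi-likelihood F-test, 3 layers in 1 fit of all 9 samples, Benjamini-Hochberg adjustment, threshold 0.05). DESeq2 1.42.0 was an alternative. Normalized CPM are counts per 1000000 of the TMM-scaled total, and RPKM also divide by transcript length. Total counts of 23104306 to 76471683 set the precision, and intervals and floors cover counting error only. Other alternatives changed the scaling, filter, samples or summing.

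The members and lists were chosen with earlier results of these data known. Some genes, 1 member among them, are counted but not reported by name here. The text names the other members, members under the filter by their counts, and of each other list at most 2 genes of smallest p per direction in a comparison, except the markers named for being at 0, called or at odds with their list, which were named after their values were seen.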

Additional observations from a re-analysis of the deposited data

How the results depend on the processing

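Of the member differences recomputed under the alternatives, 1690 kept their direction and their side of the threshold, 71 fell below it, 39 rose past it, and 63 turned direction, none of these past the threshold before or after. Requiring 10 counts in all 9 samples, which left 14 members, gave 4 called between layers A and B and 7 between layers A and C. Of all transcripts, 20.7% and 15.4% were called there. Fitting only the 6 samples compared gave 6 between layers A and B, beside 14.0% of all transcripts. Leaving out 1 sample gave 5 to 12 members between layers A and B, 4 to 16 between layers A and C and 0 to 1 between layers B and C. The shares of all transcripts were 9.92 to 20.4%, 2.45 to 17.5% and 0 to 0.0305%. Between layers B and C, DESeq2 called 2 members, no filter on low counts called 1 and one transcript per gene called 1, beside 0.22%, 0.0126% and 0.0225%. With replicate 3 of every layer left out, an alternative chosen after seeing the data, 12, 11 and 0 members were called. The shares of all transcripts were then 22.8%, 17.7% and 0.0376%. The samples were treated as unpaired because the study's methods name no pairing of replicates. Same-numbered samples correlated from -0.229 to 0.276 in their deviations from the layer means. All pairs of replicates 3 correlated positively, at 0.218, 0.258 and 0.128. Replicate 3 also had the largest total count of each layer (43705625, 44224318 and 76471683), and the source of these correlations was not tested. The fit with a replicate block called 12, 15 and 0 members in the 3 comparisons, beside 16.3%, 11.3% and 0% of all transcripts. With that block Chrm4, called between layers A and B in the main fit, had an edgeR adjusted p of 0.103. In layer A replicate 1, the shallowest sample after scaling, members under 0.254 CPM were below 3 counts. Chrm5 and Drd2 had 2 counts each there, so their levels in that sample, and separations that use them, are imprecise.

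The log2 fold changes that turned direction with 1 sample left out spanned the following ranges. Between layers A and B, they were -0.16 to 0.06 for Adra1b, -0.99 to 0.03 for Hrh2, -1.90 to 0.06 for Htr1b, -1.23 to 0.47 for Htr2b, -0.40 to 0.43 for Htr4 and -0.49 to 0.85 for Htr6. Between layers A and C, they were -0.16 to 0.39 for Adra1a, -0.35 to 0.34 for Chrna7, -0.90 to 0.19 for Hrh1, -0.01 to 1.30 for Htr2b, -1.59 to 0.24 for Htr3a, -0.05 to 1.56 for Htr4 and -0.23 to 0.52 for Htr6. Between layers B and C, they were -0.04 to 0.30 for Adra2a, -0.66 to 0.33 for Adra2c, -0.24 to 0.27 for Adrb1, -0.76 to 0.40 for Chrm2, -0.20 to 0.44 for Chrm3, -0.04 to 0.91 for Chrm4, -0.66 to 0.24 for Chrnb1, -1.61 to 0.28 for Htr1f, -0.78 to 0.07 for Htr2a, -0.05 to 1.54 for Htr4, -0.78 to 0.19 for Htr5b, -0.69 to 0.61 for Htr6 and -0.34 to 0.64 for Htr7. With replicate 3 of every layer left out, Htr6 turned to -0.49 between layers A and B, Chrna7 to 0.17 and Hrh1 to 0.05 between layers A and C, and Chrm2 to 0.23, Chrnb1 to 0.58, Htr2a to 0.20, Htr7 to -0.41, Adra2a to -0.08, Adra2c to -0.69 and Adrb1 to 0.00 between layers B and C. With the replicate block, Chrnb1 turned to 0.05, Htr6 to -0.08, Adra2c to -0.10 and Adrb1 to 0.03 between layers B and C. Between layers A and B, Htr4 turned to 0.02 with only the 6 samples compared and without mitochondrial transcripts, and Htr6 to -0.06 with one transcript per gene. Between layers B and C, Chrnb1 turned to 0.37 with counts summed by gene and to 0.02 with one transcript per gene. The cause was not tested.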
